A study of Homo sapiens with 9 samples.

Results

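Aminoacyl-tRNA synthetases join each amino acid to its transfer RNA (tRNA), and the products feed the ribosome. Here 36 synthetase genes were described, all found by symbol among the 26475 rows of the deposited count table. They comprise 20 genes of cytosolic enzymes and 16 genes of mitochondrial enzymes, whose symbols end in 2. Their RNA was followed by RNA-seq in MDA-MB-231 cells, an established human line from a triple-negative breast adenocarcinoma, with 9 libraries in 3 groups of 3. Control cells were stably transduced with empty pLKO.1. ACSL4 knockdown cells carried pLKO.1-shACSL4, a hairpin against the acyl-CoA synthetase ACSL4. The PRGL493 group was control cells given that ACSL4 inhibitor, at a dose and time, and against a vehicle, that the labels leave out. All groups share that cell line, and the labels name 1 stable line for each construct. The series text describes the 3 libraries of a group as different batches of cells. The hairpin was compared with an empty vector, not with a non-targeting hairpin.

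Most cells keep separate sets of synthetases for the cytosol and for the mitochondrion, all encoded in the nucleus. GARS and KARS are exceptions that serve both compartments, and EPRS joins the glutamate and proline enzymes in a single chain. Several cytosolic synthetases assemble with the scaffold proteins AIMP1, AIMP2 and EEF1E1 into the multi-synthetase complex. When uncharged tRNAs accumulate, the kinase GCN2 phosphorylates eIF2alpha and translation of the transcription factor ATF4 rises. ATF4 then activates many cytosolic synthetase genes together with genes of amino acid synthesis, often through a C/EBP-ATF response element.

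The letters searched for that element were TGATGNAA, on both strands, in RefSeq promoters (GRCh38.p14) running from 250 bases before to 50 bases after the gene start. Of the 36 genes 30 matched a promoter, and 7 of these held a match, against 1270 of all 35116 promoters (3.62%) and 598 of 22199 promoters of protein-coding genes (2.69%). Among cytosolic synthetases listed from the literature as ATF4 targets, 6 of 10 matched promoters held it, namely those of AARS, CARS, IARS, MARS, NARS and TARS. None of 6 matched promoters of the other cytosolic genes did, and 1 of 14 mitochondrial promoters did, that of YARS2. Starts were those of RefSeq, and those of CARS2 and MARS lay far inside the longer GENCODE gene. The CARS2 promoter was chr13:110706466-110706765 (minus strand), and its GENCODE gene spans 110641412 to 110713603. The GENCODE gene of MARS (plus strand) starts at 57475445. The first base of the match lay 187 bases before the start in AARS, 13 before in IARS, 4 before in MARS and 14 after in NARS. The sequences of those 4 promoters are shown because AARS, IARS and MARS were among the members that changed most, and NARS carried the letters in the other orientation. They are given 5′ to 3′ along the gene, with the match in capitals, from chr16:70289477-70289736 (minus strand) for AARS, chr9:92293668-92293797 (minus) for IARS, chr12:57487968-57488097 (plus) for MARS and chr18:57621807-57621936 (minus) for NARS.
AARS: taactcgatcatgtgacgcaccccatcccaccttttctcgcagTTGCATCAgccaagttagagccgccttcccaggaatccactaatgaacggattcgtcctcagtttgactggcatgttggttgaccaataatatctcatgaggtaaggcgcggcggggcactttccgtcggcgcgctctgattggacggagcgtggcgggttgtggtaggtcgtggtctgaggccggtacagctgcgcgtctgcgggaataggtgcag
IARS: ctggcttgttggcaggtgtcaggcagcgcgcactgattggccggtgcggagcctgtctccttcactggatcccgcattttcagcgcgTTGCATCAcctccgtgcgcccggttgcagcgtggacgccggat
MARS: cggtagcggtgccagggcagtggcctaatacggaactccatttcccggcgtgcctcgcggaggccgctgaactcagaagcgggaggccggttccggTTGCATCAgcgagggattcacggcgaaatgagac
NARS: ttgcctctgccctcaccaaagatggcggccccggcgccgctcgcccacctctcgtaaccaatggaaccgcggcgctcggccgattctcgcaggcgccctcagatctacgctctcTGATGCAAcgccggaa

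Library totals ran from 28673938 to 43027190 counts, and the synthetase genes had between 257 and 32850 counts in a library. All 36 passed the filter on low counts, among 14135 genes tested. ACSL4 lay at 339 to 366 CPM (counts relative to the library total, TMM-scaled) in control, 23.7 to 29.5 CPM in knockdown and 333 to 360 CPM in PRGL493 libraries, a log2 fold change of -3.69 (SE 0.07) in the knockdown. VIM, CD44, CAV1 and ZEB1, markers of a mesenchymal-like line, were present in every library. Of the genes listed as low in such a line, ESR1 and PGR did not exceed 6 counts, and CDH1 lay at 0.42 to 2.04 CPM. ERBB2, from the same list, was not low, with means of 75.3 CPM in control, 70.4 CPM in knockdown and 96.25 CPM in PRGL493 libraries. ZEB1 had means of 87.0, 93.1 and 82.0 CPM in the same order. Knockdown replicate 2 stood apart by transcript length. Its median log2 deviation from the mean of all 9 libraries was 0.167 over short and -0.164 over long transcripts. The other 8 libraries had -0.071 to 0.056. Without knockdown replicate 2 the knockdown counts of genes called, given below, were equal for both classes, with medians of 0.05 (cytosolic) and -0.001 (mitochondrial).

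In control cells the cytosolic genes were far more abundant than the mitochondrial ones. Per kilobase of exon, the cytosolic median was 76.9 CPM per kb (range 16.1 to 221) and the mitochondrial median 6.74 CPM per kb (range 3.86 to 77.4). The median of all tested genes with a length was 6.84 CPM per kb. SARS, for serine, stood highest at 221 ± 5.34 CPM per kb (SD, n = 3), followed by GARS at 197.9 to 201.3, TARS at 157 ± 1.66 and IARS at 145 ± 1.34. The ranges of these 4 genes did not overlap. VARS and KARS, at 45.6 ± 1.99 and 45.5 ± 1.73 CPM per kb, did overlap, as did HARS at 16.6 ± 0.48 and FARSB at 16.1 ± 1.01. HARS and FARSB were the lowest cytosolic genes. The mitochondrial enzymes IARS2 (77.4 ± 0.44 CPM per kb) and CARS2 (26.0 ± 1.15) ranked 11 and 20 among the 36 genes. The other 14 mitochondrial genes lay below every cytosolic gene, from TARS2 at 11.2 ± 0.05 down to PARS2 at 3.86 ± 0.06.

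**Figure D1:**
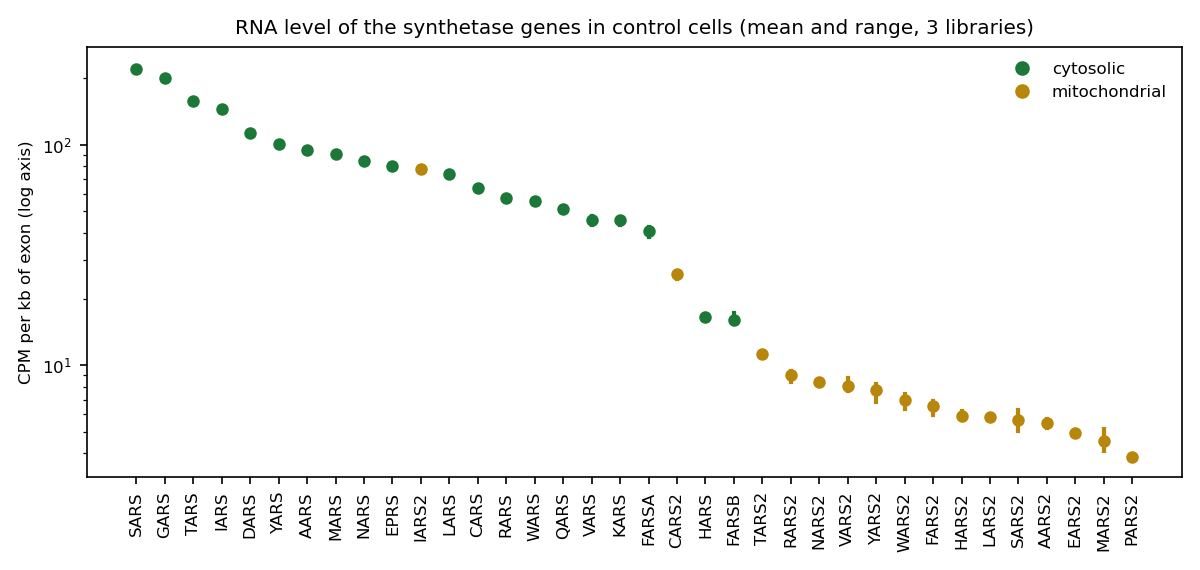
RNA level of each synthetase gene in control cells, in CPM per kb of exon on a log axis. Points are means and bars the range over 3 libraries, green for cytosolic and ochre for mitochondrial genes. IARS2 and CARS2 are the mitochondrial genes that sit among the cytosolic ones.

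PRGL493 libraries had less RNA of most cytosolic synthetases. Of the 20 cytosolic genes 16 were lower than control, 1 was higher (QARS) and 3 were not called (HARS, RARS and FARSA), at an adjusted p below 0.05 over all genes tested. Over all genes 41.8% were called in this comparison, 20.4% lower and 21.4% higher. The median log2 fold change of the cytosolic genes was -0.51, against 0.01 over all genes. Over both classes, 24 of the 36 synthetase genes had all PRGL493 libraries below control and 2 had all above, 26 in total, where 57.2% of all genes were apart (27.2% below, 30.1% above). Summed over the cytosolic genes, the level was 5775, 5852 and 5771 CPM in control and 4056, 4036 and 4057 CPM in PRGL493 libraries. In bulk RNA, fewer cells with a transcript and less transcript per cell cannot be told apart.

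The largest falls were in AARS, MARS, WARS and IARS, the enzymes for alanine, methionine, tryptophan and isoleucine. AARS measured 334, 329 and 326 CPM in control and 178, 174 and 163 CPM in PRGL493 libraries (log2 fold change -0.94, SE 0.05, adjusted p 3.4e-10). MARS measured 264, 269 and 255 CPM in control and 141.0, 142 and 137 CPM with PRGL493 (-0.91, SE 0.06, adjusted p 1.4e-09). In both genes every PRGL493 library lay far below the lowest control library. WARS measured 231, 235 and 240 CPM in control and 127, 130 and 132 CPM with PRGL493 (-0.86, SE 0.05, adjusted p 3e-10). IARS, the second most counted cytosolic gene, measured 694, 704 and 691 CPM in control and 391, 398 and 379 CPM with PRGL493 (-0.84, SE 0.04, adjusted p 2.6e-10). Here too the groups were far apart, and the 3 libraries of each group were close together. SARS measured 429, 440.0 and 419 CPM in control and 260, 250.4 and 259 CPM with PRGL493 (-0.74, SE 0.05, adjusted p 8.1e-09). LARS, for leucine, measured 339, 357 and 356 CPM in control and 223, 226 and 228 CPM with PRGL493 (-0.64, SE 0.05, adjusted p 1.3e-08). Neither gene's groups overlapped.

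The other cytosolic genes that fell were VARS (valine) with a log2 fold change of -0.67, EPRS with -0.66, YARS (tyrosine) with -0.60, GARS (glycine) with -0.56 and NARS (asparagine) with -0.47. Smaller falls were seen in CARS (cysteine) with -0.36, FARSB (the beta chain of the phenylalanine enzyme) with -0.32, KARS (lysine) with -0.29 and TARS (threonine) with -0.25. FARSA, the alpha chain of the same phenylalanine enzyme, was at 85.0 ± 4.39 CPM in control and 84.4 ± 2.97 CPM with PRGL493 (-0.01, 95% interval -0.15 to 0.13). Its partner FARSB was at 54.2 ± 3.41 and 43.4 ± 1.00 CPM, with no overlap between groups. DARS (aspartate) was called lower by a narrow margin (-0.13, SE 0.05, adjusted p 0.0498), and 10 of 18 alternative settings ended that call. They include leaving out any control library, PRGL493 replicate 1 or 2, or knockdown replicate 3, with log2 fold changes of -0.13 to -0.11, and removing a trend on transcript length and GC, with -0.05. QARS, the glutamine enzyme, rose from 148, 149 and 146 CPM to 176, 168 and 164 CPM (0.20, SE 0.06, adjusted p 0.009). All 3 PRGL493 libraries were above control, although without PRGL493 replicate 1 the log2 fold change was 0.17 and the adjusted p 0.064. QARS, DARS, FARSA and FARSB were picked for this description after their values were seen.

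**Figure D2:**
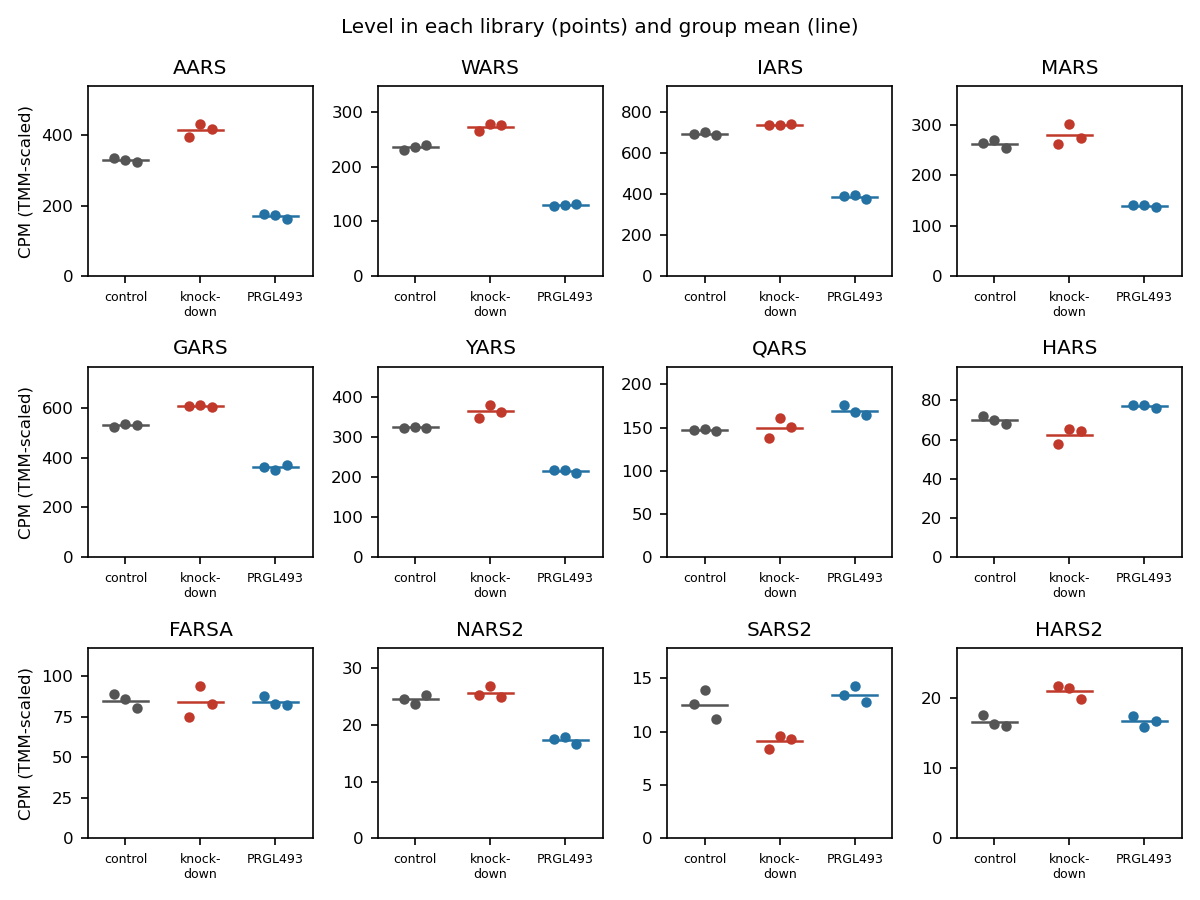
Level of 12 synthetase genes in each library, in TMM-scaled CPM from 0. Points are libraries and lines group means, for control (grey), ACSL4 knockdown (red) and PRGL493 (blue). AARS, WARS, GARS and YARS are ordered knockdown, control, PRGL493, while QARS is highest with PRGL493 and SARS2 is lowest in the knockdown.

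All 13 cytosolic genes known from the literature as ATF4 targets were lower with PRGL493, with log2 fold changes of -0.94 to -0.25 and a median of -0.66. Over all genes 20.4% were called lower and 21.4% higher, with a median of 0.01. Among the other 7 cytosolic genes 3 were lower (KARS, FARSB and DARS), 1 was higher and 3 were not called, with a median of -0.05. With the trend on length and GC removed, 2 of these 7 were higher, 2 were lower and the median was 0.03. The 13 genes summed to 4935 ± 43 CPM in control and 3215 ± 7.60 CPM with PRGL493, and the other 7 to 864 ± 3.85 and 835 ± 6.08 CPM (SD, n = 3). Under all 18 alternative settings all 13 were called lower. The list was drawn up with earlier results of these data known, so its count is a description. The promoter letters did not separate the genes that fell from each other. The 6 ATF4-list genes with a match (see the sequences of AARS, IARS, MARS and NARS) had log2 fold changes of -0.94 to -0.25. The 4 with a promoter and no match, EPRS, GARS, SARS and WARS, had -0.86 to -0.56.

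The enzymes were also divided in other ways, to be read against the 20.4% of all genes called lower and 21.4% called higher. The ATF4 list was drawn up with earlier results known, so the divisions are not ranked. Of the 8 cytosolic enzymes of the multi-synthetase complex 6 were lower and 1 higher with PRGL493 (median -0.46), and of the 12 outside it 10 were lower (median -0.51). Of the 18 genes of class I enzymes 11 were lower and 1 higher (median -0.34), and of the 17 of class II enzymes 10 were lower (median -0.25). These classes differ in the fold of the catalytic domain, and EPRS, which holds an enzyme of each, was left out of both. Both classes hold cytosolic and mitochondrial genes, unlike the ATF4 list and the complex.

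Of the 16 mitochondrial genes 6 were lower with PRGL493, none was higher and 10 were not called, with a median log2 fold change of -0.12 beside -0.51 for the cytosolic genes. Over all genes 41.8% were called, 20.4% lower and 21.4% higher. The mitochondrial share called in either direction was thus under that of all genes, and the share called lower was above it. NARS2, for mitochondrial asparagine, measured 24.6, 23.7 and 25.3 CPM in control and 17.5, 17.8 and 16.6 CPM with PRGL493 (-0.50, SE 0.07, adjusted p 1.9e-05). CARS2 measured 50.2, 49.9 and 46.3 CPM in control and 36.5, 36.9 and 35.0 CPM with PRGL493 (-0.43, SE 0.06, adjusted p 2.8e-05). Both were lower in every PRGL493 library. IARS2, the most abundant mitochondrial member, measured 276, 277 and 274 CPM in control and 220.1, 227 and 234 CPM with PRGL493 (-0.28, SE 0.05, adjusted p 0.00015). MARS2 measured 12.4, 13.2 and 15.5 CPM in control and 9.56, 10.8 and 10.7 CPM with PRGL493 (-0.41, SE 0.09, adjusted p 0.0019). The groups of both genes were apart, with the wider control spread in MARS2. VARS2 measured 35.9, 31.0 and 31.5 CPM in control and 28.1, 27.0 and 23.8 CPM with PRGL493 (-0.32, SE 0.08, adjusted p 0.003). AARS2 measured 21.97, 19.99 and 21.4 CPM in control and 17.4, 18.4 and 17.3 CPM with PRGL493 (-0.26, SE 0.07, adjusted p 0.0075). Neither overlapped with control. The 10 genes that were not called had log2 fold changes of -0.16 (FARS2) to 0.11 (SARS2). Removing a trend on transcript length and GC gave a mitochondrial median of -0.09 and again 6 lower calls.

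The summed level of PTPRC, PECAM1, COL3A1 and PDGFRB was 26.2 to 28.2 CPM in control, 22.1 to 22.9 CPM in knockdown and 16.5 to 18.8 CPM in PRGL493 libraries. Nearly all of it was PDGFRB, with means of 25.03, 21.1 and 15.1 CPM. PECAM1, an endothelial marker, did not follow that order, with means of 2.14, 1.43 and 2.498 CPM. PTPRC, listed for leukocytes, and COL3A1, listed with PDGFRB for stromal fibroblasts, did not exceed 3 counts in any library. PDGFRB had 445 to 925 counts, so the 2 fibroblast genes did not go together. The part of the cells these genes mark in the synthetase values was not tested.

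**Figure D3:**
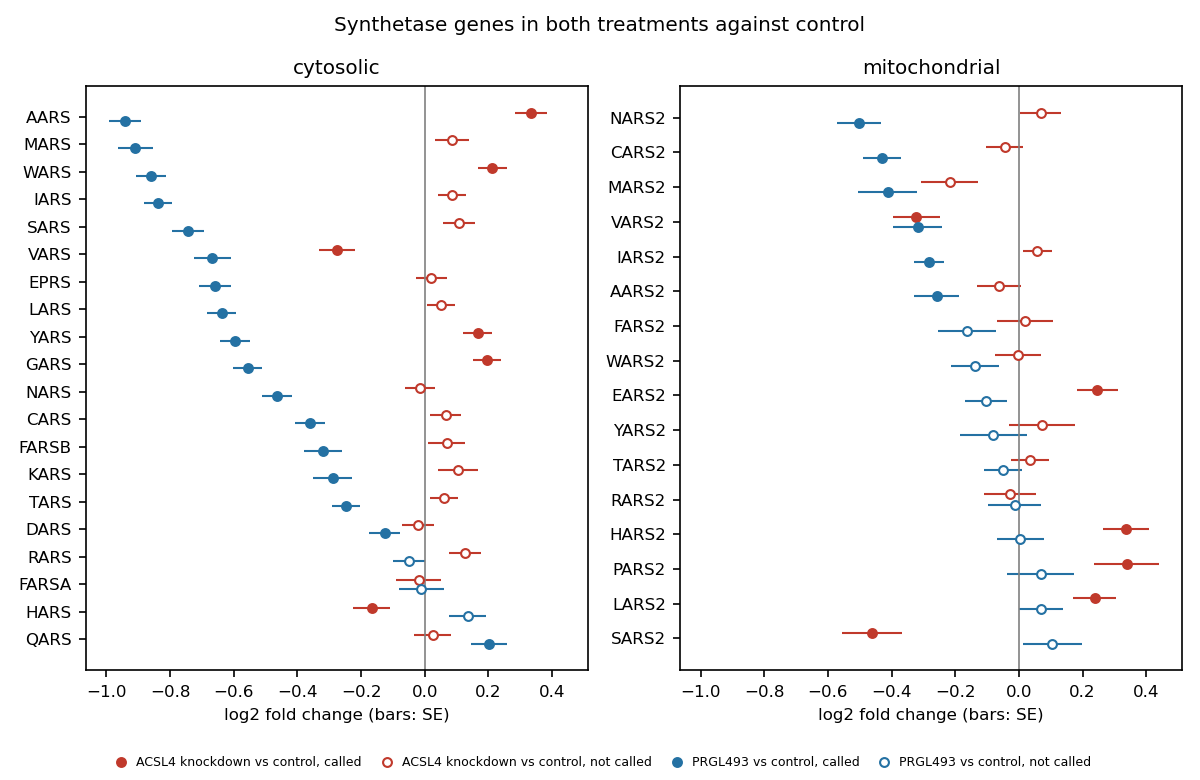
Log2 fold change of each cytosolic (left) and mitochondrial (right) synthetase gene against control, for ACSL4 knockdown (red) and PRGL493 (blue). Bars are SE, filled points are called at an adjusted p below 0.05, and both contrasts use the same control libraries. Most blue cytosolic points lie left of 0, down to -0.94 for AARS, and the red points lie between -0.46 and 0.34.

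ACSL4 knockdown gave a different and smaller set of changes. Of the 20 cytosolic genes 4 were higher, 2 were lower and 14 were not called, and of the 16 mitochondrial genes 4 were higher, 2 lower and 10 not called. Over all genes 30.1% were called in this comparison (14.7% higher, 15.3% lower), and 12 of the 36 synthetase genes were called, close to that share. The median log2 fold change was 0.07 for cytosolic and 0.03 for mitochondrial genes, against 0.001 over all genes. Knockdown libraries lay all above control in 13 of the 36 genes and all below in 5, 18 in total, where 42.0% of all genes were apart (20.8% above, 21.2% below). The summed cytosolic level was 6073, 6315 and 6113 CPM, above the 3 control libraries. The knockdown and PRGL493 comparisons share their control libraries, so their values are only set side by side.

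The 4 cytosolic genes that rose were AARS, WARS, GARS and YARS. AARS measured 396, 432 and 417 CPM in knockdown libraries, above the control libraries given earlier (log2 fold change 0.33, SE 0.05, adjusted p 0.00011). WARS measured 265, 277 and 275 CPM (0.21, SE 0.05, adjusted p 0.0021). GARS measured 525, 534 and 532 CPM in control, 608, 611 and 605 CPM in knockdown and 362, 350.4 and 370.0 CPM with PRGL493 (0.20, SE 0.04, adjusted p 0.0032 in the knockdown). In these genes no knockdown library overlapped with control. YARS measured 324, 327 and 323 CPM in control, 348, 380.4 and 364 CPM in knockdown and 218, 217 and 210 CPM with PRGL493. Its rise in the knockdown (0.17, SE 0.05, adjusted p 0.014) had an adjusted p of 0.052 without control replicate 1 and again without control replicate 3. AARS, WARS, GARS and YARS were thus higher with the knockdown and lower with PRGL493, a pair of calls shared by 342 of the 14135 genes tested (2.42%).

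VARS and HARS were the cytosolic genes that fell in the knockdown. VARS measured 204, 199 and 187 CPM in control, 152, 172 and 163 CPM in knockdown (-0.28, SE 0.06, adjusted p 0.0016) and 128, 125 and 119 CPM with PRGL493. The 3 groups did not overlap. Removing a trend on transcript length and GC brought the knockdown change of VARS to -0.14 (adjusted p 0.013), still called. HARS, for histidine, measured 72.3, 70.0 and 68.2 CPM in control, 57.6, 65.6 and 64.6 CPM in knockdown and 77.6, 77.5 and 76.1 CPM with PRGL493. Its knockdown value (-0.17, SE 0.06, adjusted p 0.041) was not called under 13 of 18 alternative settings. Leaving out any library other than knockdown replicate 2 ended the call, with log2 fold changes from -0.19 to -0.11. None of the 8 enzymes of the multi-synthetase complex was called in the knockdown, with log2 fold changes from -0.02 (DARS) to 0.13 (RARS).

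Among mitochondrial genes SARS2, for serine, had the largest knockdown change. It measured 12.5, 13.9 and 11.1 CPM in control, 8.37, 9.54 and 9.34 CPM in knockdown (-0.46, SE 0.10, adjusted p 0.0016) and 13.4, 14.3 and 12.7 CPM with PRGL493. VARS2 measured 25.7, 27.2 and 25.8 CPM in knockdown (-0.32, SE 0.08, adjusted p 0.0041), so that VARS and VARS2, the valine enzymes of both compartments, were the genes lower in both treatments. No knockdown library of SARS2 or VARS2 reached the lowest control library. With the trend on length and GC removed, VARS2 had -0.22 in the knockdown (adjusted p 0.0079). HARS2 measured 17.6, 16.4 and 16.1 CPM in control and 21.7, 21.5 and 19.9 CPM in knockdown (0.34, SE 0.07, adjusted p 0.0022). EARS2, for glutamate, measured 21.97, 23.1 and 21.8 CPM in control and 26.1, 27.3 and 26.1 CPM in knockdown (0.25, SE 0.06, adjusted p 0.0079). Both were higher in every knockdown library. LARS2 measured 30.3, 30.2 and 29.5 CPM in control and 33.8, 35.2 and 37.2 CPM in knockdown (0.24, SE 0.07, adjusted p 0.014). PARS2, for proline, measured 8.94, 9.05 and 9.20 CPM in control and 11.1, 11.2 and 12.1 CPM in knockdown (0.34, SE 0.10, adjusted p 0.019). These groups were also apart, yet LARS2 was not called without knockdown replicate 3 (adjusted p 0.07) or control replicate 3 (0.057). PARS2 was not called without knockdown replicate 3 (0.078) or control replicate 1 (0.063), 2 (0.058) or 3 (0.0503).

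HARS and HARS2 are close relatives that lie head to head on chromosome 5 (GRCh38), HARS on the minus strand at 140673904 to 140691862 and HARS2 on the plus strand at 140691426 to 140699318, so their ends overlap. The deposited counts of each were fractional in all 9 libraries, while the sum of the pair was whole in all 9 to within 0.01. Their separate values are uncertain. Together they measured 86.8 ± 2.81 CPM in control, 83.6 ± 3.95 CPM in knockdown and 93.8 ± 1.19 CPM with PRGL493 (SD, n = 3). The knockdown and control ranges of the sum overlapped, unlike those of either gene. Whether counting used the strand is not given here, and MARS (with DDIT3 and ARHGAP9), WARS (WDR25), YARS (S100PBP), KARS (TERF2IP), HARS (also WDR55), YARS2 (DNM1L), SARS2 (MRPS12), CARS2 (ING1), EARS2 (UBFD1) and AARS2 (TMEM151B) overlap a coding gene on the other strand. On their own strand SARS2 overlaps AC011455.2, HARS2 overlaps ZMAT2 and VARS2 overlaps GTF2H4. Their reads may include those of the neighbour.

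Set directly against PRGL493, knockdown cells had more RNA of 16 cytosolic genes and less of 2 (HARS and QARS), with a median log2 difference of 0.44. Knockdown and PRGL493 libraries were apart in 29 of the 36 genes, 26 higher and 3 lower, where 56.0% of all genes were apart (27.3% higher, 28.8% lower). For the mitochondrial genes 8 were higher, 1 was lower (SARS2) and 7 were not called, with a median of 0.19. Over all genes 50.4% were called here (24.4% higher, 26.0% lower), with a median of -0.01. AARS differed most, by 1.27 (SE 0.05, adjusted p 6.7e-12), followed by WARS with 1.07 (SE 0.05, adjusted p 1.6e-11), MARS with 1.00 (SE 0.06, adjusted p 4e-10) and IARS with 0.92 (SE 0.04, adjusted p 7.3e-11). MARS measured 262, 301 and 273 CPM in knockdown libraries and IARS 736, 738 and 743 CPM. All 13 genes of the ATF4 list were higher in knockdown than in PRGL493 cells, with differences of 0.31 to 1.27.

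In the mitochondrial set NARS2 (0.57, SE 0.07, adjusted p 2.8e-06), CARS2 (0.39, SE 0.06, adjusted p 5.1e-05) and IARS2 (0.34, SE 0.05, adjusted p 1.5e-05) were higher in knockdown than in PRGL493 cells. NARS2 measured 25.3, 26.9 and 24.9 CPM, CARS2 45.6, 49.7 and 46.5 CPM and IARS2 298, 282 and 281 CPM in knockdown libraries. SARS2 was lower (-0.57, SE 0.09, adjusted p 9.4e-05). VARS2 did not differ by the test (-0.01, 95% interval -0.15 to 0.14). Calls with a margin too small to survive some settings were QARS (not called without knockdown replicate 1, adjusted p 0.083, or PRGL493 replicate 1, 0.099) and AARS2 (without knockdown replicate 3, 0.088, or PRGL493 replicate 1, 0.08, or 3, 0.068). LARS2 was not called without knockdown replicate 3 (0.18), PRGL493 replicate 3 (0.19) or any control library (0.064 to 0.068), and PARS2 without knockdown replicate 3 (0.12) or PRGL493 replicate 2 (0.1) or 3 (0.15). LARS2 also lost its call with no filter on low counts (0.061), with only the groups compared (0.088) and with a replicate block (0.069). PARS2 lost it with only the groups compared (0.061) and with a trend on length and GC removed (0.073). The QARS call was also lost with upper-quartile scaling factors (0.093). For RARS the difference of 0.18 became 0.02 (adjusted p 0.64) once a trend on length and GC was removed.

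For 14 amino acids a cytosolic and a mitochondrial gene could be paired, and the ratio of their CPM was followed across libraries. Gene length does not change between groups, so only shifts of the ratio are read. With PRGL493 the cytosolic change lay below the mitochondrial change in 10 of 14 pairs, with a median difference of -0.42 on the log2 scale. The ratio was below control without overlap in 9 pairs, above it in 2 (CARS/CARS2 and HARS/HARS2) and overlapping in 3. With the knockdown it was above control without overlap in 6 pairs, below it in 2 (HARS/HARS2 and LARS/LARS2) and overlapping in 6. No such share was computed for ratios of other genes. Of single genes, 57.2% were apart with PRGL493 and 42.0% with the knockdown, so the 8 pairs apart with the knockdown are a description of these pairs. The histidine pair rests on separate values that are uncertain. No permutation test was run on the ratios.

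The serine pair moved most. SARS over SARS2 was 34.2, 31.8 and 37.7 in control, 52.3, 51.6 and 49.1 in knockdown and 19.4, 17.6 and 20.3 in PRGL493 libraries. SARS carried the change with PRGL493 (-0.74, against 0.11 for SARS2), and SARS2 that with the knockdown (-0.46, against 0.11 for SARS, which was not called). The asparagine pair held its ratio: NARS over NARS2 was 10.8, 11.02 and 10.3 in control and 10.6, 10.5 and 11.9 with PRGL493, as both genes fell (-0.47 and -0.50). CARS and CARS2 also both fell, by 0.36 and 0.43 on the log2 scale. Leucine differed, since LARS fell with PRGL493 while LARS2, at 33.0, 32.9 and 28.6 CPM, was not called (0.07).

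**Figure D4:**
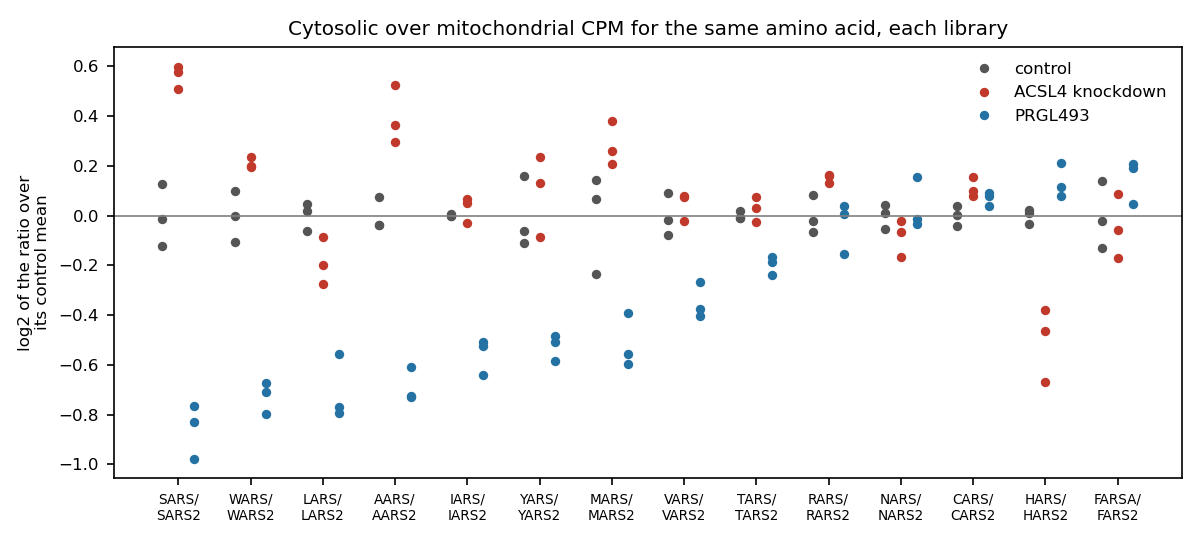
Cytosolic over mitochondrial CPM for 14 amino acids in each library, as the log2 of the ratio over its control mean, with pairs ordered by the PRGL493 mean. Points are libraries of control (grey), ACSL4 knockdown (red) and PRGL493 (blue). In 9 pairs all blue points lie below all grey ones, and for SARS/SARS2 the red points lie above.

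Summed over all members, the ratio of cytosolic to mitochondrial CPM was 9.61 ± 0.05 in control, 9.95 ± 0.17 in knockdown and 7.82 ± 0.05 in PRGL493 libraries (SD, n = 3). The summed mitochondrial level was 604 ± 2.83, 620 ± 6.11 and 518 ± 1.56 CPM. Each group's libraries were separate from those of the other groups in both measures. IARS2 alone gave 276 ± 1.6, 287 ± 9.4 and 227 ± 6.8 CPM of the mitochondrial sum in the same order. Both measures therefore lean on this gene, which was not called in the knockdown (adjusted p 0.38).

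Genes that work beside the synthetases were followed from lists, to be read against the 41.8% of all genes called with PRGL493 and the 30.1% called in the knockdown. The 3 scaffolds of the multi-synthetase complex were lower with PRGL493, AIMP1 by a log2 fold change of -0.28, AIMP2 by -0.37 and EEF1E1 by -0.21, and none was called in the knockdown. Only 2 of the 3 were called with PRGL493 once the length and GC trend was removed, without control replicate 2 or without control replicate 3. Of 11 other tRNA charging genes 3 fell with PRGL493 and 1 rose, a share under that of all genes. DTD1, which clears wrongly charged D-aminoacyl-tRNAs, had -0.50, AARSD1, which edits mischarged tRNA-Ala, -0.43 and PTRH2, a peptidyl-tRNA hydrolase, -0.26. GATC, a subunit of the amidotransferase that makes mitochondrial Gln-tRNA, rose by 0.25. In the knockdown SEPSECS, of selenocysteine synthesis on tRNA, rose (0.50) and PTRH2 fell (-0.26), again a share under that of all genes. Of 5 cytosolic elongation factors 3 fell with PRGL493, EEF2 by -0.18, EEF1G by -0.17 and EEF1B2 by -0.17, and 1 rose in the knockdown (EEF1A1, 0.19). Of 8 mitochondrial translation factors 5 fell with PRGL493, namely TUFM (-0.32), MRRF (-0.36), GFM2 (-0.29), GFM1 (-0.33) and MTIF2 (-0.24), and 1 rose in the knockdown (TSFM, 0.22). The knockdown shares of both factor lists were under that of all genes.

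Of 25 listed transcripts of the ATF4 pathway 21 were lower with PRGL493 and 1 was higher (ATF5, 0.69), with a median of -0.61. In the knockdown 12 were higher and 6 lower, with a median of 0.155. Without knockdown replicate 2, which stood apart by transcript length, 12 were higher and 7 lower, and the median was 0.075. PTRH2, GFM1, MTIF2 and ATF5 are named to complete these counts, after their values were seen. PSAT1, an enzyme of serine synthesis, rose in the knockdown (0.34) and fell with PRGL493 (-1.03), while the transcription factor ATF3 fell in both (-2.80 and -2.02). ASNS, asparagine synthetase, was at 333 CPM in control, 407 CPM in knockdown (0.29, adjusted p 0.00066) and 127 CPM with PRGL493 (-1.39, adjusted p 5.2e-12). ATF4 mRNA itself was at 301 CPM in control, 352 CPM in knockdown (0.23, adjusted p 0.0085) and 310 CPM with PRGL493 (0.04, adjusted p 0.62). DDIT3, a transcription factor of the same response, fell in both, from 31.1 to 24.1 CPM (-0.37) and to 15.1 CPM (-1.04). DDIT3 overlaps MARS on the other strand, at a level well under that of MARS. If counting ignored the strand, the DDIT3 values may include reads of MARS, which was not tested. MYC, a factor that also drives translation genes, fell from 397 CPM to 189 CPM in the knockdown (-1.07, adjusted p 1.1e-10) and to 258 CPM with PRGL493 (-0.62, adjusted p 8.5e-08). The part of these regulators in the synthetase changes was not tested.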

How the data were processed

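The table, as deposited by the authors, holds estimated counts (an expected count may be fractional) per gene symbol and library, not scaled for depth. The submitters' processing notes name the build GRCh38. Which aligner and counting tool were used, and whether strand was considered, is not given in the sources used here. Fractional values made up 10.5% of the table and were rounded before testing. Groups came from the sample titles. Library totals of 28673938 to 43027190 counts set the precision. Genes were kept with edgeR's filterByExpr, scaled with TMM and fitted with group as the only term over all 9 libraries (edgeR 4.0.16 quasi-likelihood test, R 4.3.3, robust, 6 residual degrees of freedom, biological coefficient of variation 6.38%). Benjamini-Hochberg adjustment covered the 14135 genes tested, with calls at an adjusted p below 0.05. SE is the absolute log2 fold change over the square root of F. The script was tested on simulated data. Levels per kb use the union of GENCODE exons on GRCh38. Replicates are batches of 1 engineered line, which sets the spread that each p-value reflects.

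The members and all lists were chosen with earlier results of these data known. Values in every library were given for up to 6 called genes per class and treatment comparison with the smallest adjusted p, up to 4 in the direct comparison, and all members called in opposite directions. Genes of other lists were named up to 3 per list where called, with ATF4, DDIT3, ASNS and MYC always. Alternatives were DESeq2 1.42.0, other scaling factors and filters, fits of only the groups compared, a replicate block, leaving out each library, and, chosen after seeing the data, removal of a length and GC trend.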

Additional observations from a re-analysis of the deposited data

How the results depend on the processing

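No value changed direction for a called gene, and 1064 of 1116 comparisons of a called gene with an alternative kept the call. Knockdown counts rested on small margins: with library totals alone 7 cytosolic genes were higher and 1 lower, and 1 was lower with no filter, with only the groups compared, with upper-quartile factors and with the replicate block. The knockdown mitochondrial median was 0.061 with library totals and 0.06 with upper-quartile factors. With PRGL493, 2 cytosolic genes were higher with the length and GC trend removed, with library totals and with only the groups compared. The trend removal gave medians of -0.465 (cytosolic) and -0.086 (mitochondrial). In the direct comparison it gave 2 lower mitochondrial genes and a median of 0.163. Upper-quartile factors gave 1 lower cytosolic gene there, with medians of 0.494 and 0.243.

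Leaving out each library in turn, the knockdown had 3 to 5 cytosolic genes higher and 1 to 2 lower, and 2 to 4 mitochondrial genes higher and 2 to 3 lower, with medians of 0.05 to 0.086 and -0.001 to 0.045. PRGL493 had 0 to 2 cytosolic genes higher and 15 to 16 lower, and 6 mitochondrial genes lower each time, with medians of -0.542 to -0.502 and -0.155 to -0.08. The direct comparison had 16 to 17 cytosolic genes higher and 1 to 2 lower, and 5 to 10 mitochondrial genes higher and 1 lower, with medians of 0.433 to 0.458 and 0.176 to 0.237.

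Same-numbered libraries correlated by -0.084 to 0.152 and others by -0.138 to 0.078 in their deviations. Between control and knockdown the same-numbered pairs gave 0.108, 0.152 and 0.062, above the other control and knockdown pairs (-0.138 to 0.025), while all same-numbered pairs with a PRGL493 library were negative. The 6 control and knockdown libraries of the 9 correlated best with a library of their number, a hint of shared numbering from the data. The labels do not say that a number marks a shared batch, so the main fit did not pair the samples. A replicate block was fitted as an alternative. With the replicate block 3879, 5635 and 6857 genes were called in the knockdown, PRGL493 and direct comparisons, against 4250, 5909 and 7130. Of the calls in the knockdown 49.0% were higher, against 59.8% with library totals and 58.7% with upper-quartile factors, and in the direct comparison 48.4% against 58.4% with upper-quartile factors. With 3 libraries a group, small differences in low-count mitochondrial genes carry the wider errors.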
